A study of Caenorhabditis elegans with 4 samples.

Results

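Chromosome IV carried 316 of the 2791 HLH-30 binding sites in the combined peak list of this series, the smallest number and the lowest density of the 6 chromosomes of Caenorhabditis elegans. The sites are all intervals of that list placed on chromosome IV, whatever their width or strength. The 2 replicate lists placed 117 peaks each on the same chromosome. The assay was ChIP-seq, in which chromatin bound by a protein is immunoprecipitated and sequenced, in whole hermaphrodites at the L4 larval stage, grown at 20 °C and fixed with 2% formaldehyde. The 2 ChIP and 2 input libraries are all from strain OP433, which has an unc-119(ed3) III background, was outcrossed 3 times and carries the transgene wgIs433 made by bombardment. The transgene holds hlh-30 fused to TY1, EGFP and FLAG together with a rescuing copy, unc-119(+). ChIP used antibodies to GFP, and input is chromatin that was not immunoprecipitated. The genotype names no mutation of the worm's own hlh-30, and signal from all tissues is mixed, so a site cannot be given to a cell type.

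HLH-30 is the worm counterpart of mammalian TFEB, a transcription factor with a helix-loop-helix domain and a leucine zipper. Factors of this family bind short E-box motifs, and HLH-30 is known for inducing genes of autophagy, lysosomes and lipid breakdown in starved or infected worms and for its part in long-lived strains. The autosomes of this worm have a central part rich in conserved genes and arms that recombine more and hold more repeats. The hlh-30 gene itself lies on chromosome IV and unc-119 on chromosome III, per the RefSeq gene table, so the transgene adds copies of a stretch of chromosome IV. The peak coordinates are on build WS180. The gene table is on another build, so no peak is assigned to a gene and no sequence is shown.

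Each peak is an interval with a q-value, the peak caller's p-value after adjustment for multiple testing. Strength is given below as −log10 q, where a higher number is a stronger peak. The lists hold no read counts, so the depth of the libraries is unknown and no error can be given for a single peak. Peaks are not independent replicates, so a p-value across peaks describes these lists. Nothing in the labels says that the ChIP replicates came from separate cultures. Lengths of chromosomes were taken as the last peak end in any list, 17442898 bp for IV, and are lower bounds.

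HLH-30 peaks were sparse on chromosome IV in all 3 lists. The combined list held 18.1 peaks per Mb on IV, against 29.9 per Mb on the other chromosomes together and 24.1 per Mb on V, the next lowest. The replicates each held 6.71 peaks per Mb on IV, against 17.2 ± 0.274 per Mb elsewhere (SD, n = 2). The density on IV was therefore 0.605 of that elsewhere in the combined list, 0.393 in replicate 1 and 0.385 in replicate 2. The share of peaks on IV was 11.3% in the combined list (95% Wilson interval 10.2 to 12.6), 7.66% in replicate 1 (6.43 to 9.10) and 7.5% in replicate 2 (6.30 to 8.92), where IV makes up 17.4% of the length. Each share was below that of the length (exact binomial test, two-sided, adjusted p = 3.92e-19, 3.66e-28 and 2.51e-29 over the 3 lists). The combined peaks covered 230.5 kb, or 1.32% of IV, against 2.20% of the other chromosomes.

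The sites were not spread evenly along chromosome IV. Chromosome IV was cut into 10 segments of equal length numbered from the left end. The segments with most combined peaks were 7, with 47, and 5, with 46. In each of these segments 30 combined peaks overlapped no replicate peak. Those that overlapped a peak of both replicates numbered 12 in segment 7 and 11 in segment 5, and 12 in segments 2 and 3. Replicate 1 was fullest in segment 2, with 18 peaks, and had 14 in segments 5 and 7. Replicate 2 had at most 15 in any segment, with 15 in segment 5 and 14 in segment 7. Segment 10 held 12 combined peaks, or 3.8% of them (95% Wilson interval 2.19 to 6.52). Segments 1 to 3 held 101 peaks (32.0%, 27.1 to 37.3), segments 4 to 7 held 157 (49.7%, 44.2 to 55.2) and segments 8 to 10 held 58 (18.4%, 14.5 to 23.0). In peaks per Mb these blocks had 19.3, 22.5 and 11.1.

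Replicate 1 had 43, 51 and 23 peaks in the same blocks from left to right, and replicate 2 had 43, 59 and 15. The blocks make up 30%, 40% and 30% of the length. They held 36.8%, 43.6% and 19.7% of replicate 1 peaks and 36.8%, 50.4% and 12.8% of replicate 2 peaks. For its length the left block was the fullest in replicate 1, and the left and central blocks were close in replicate 2. Combined peaks that overlapped a peak of both replicates numbered 33, 42 and 12. The right end was thus the emptiest block in every list. On the other autosomes together segments 1 to 3 held 21.8% of combined peaks and segments 8 to 10 26.6%. On X segments 8 to 10 held 39.5%. The left part of IV thus held a larger share than the right, while on the other autosomes together and on X the larger share was on the right. These shares are a description, and the difference between chromosomes was not tested.

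**Figure D1:**
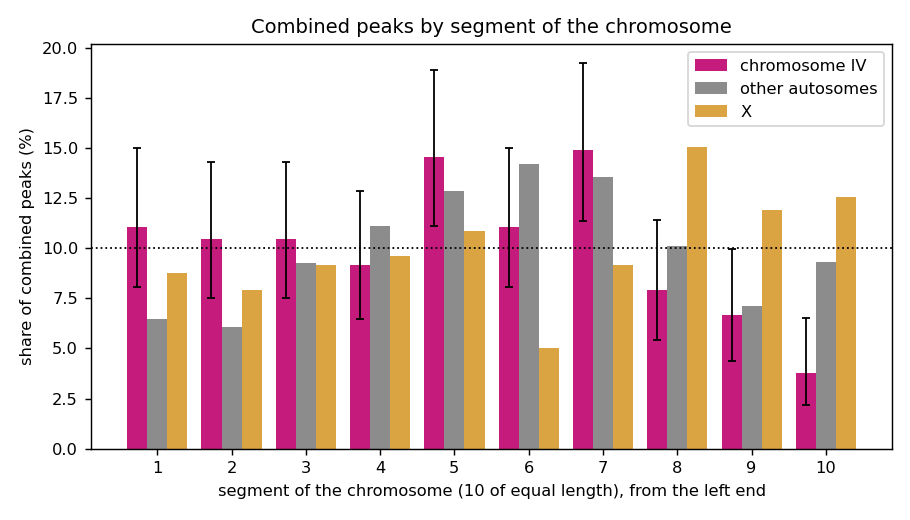
Share of combined HLH-30 peaks (%) in each of 10 equal segments of the chromosome, counted from the left end, for chromosome IV (316 peaks), the other autosomes together and X. Error bars on IV are 95% Wilson intervals and the dotted line marks an even share. Segments 5 and 7 of IV stand highest, and segment 10 holds 3.8%.

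In bins of 250 kb the number of combined peaks on IV ran from 0 to 13, with a median of 4 over the 69 whole bins. One whole bin was empty and 7 held a single peak. At the other end, 7 bins held 9 or more peaks, and together these had 71 peaks, or 22.5% of the sites on the chromosome. The variance of the bin counts was 1.68 times their mean on IV. Taken singly, the other chromosomes had 1.97 (X), 2.05 (III), 2.18 (I), 2.69 (II) and 2.73 (V). Their bins pooled gave 2.60, which also holds differences in density between them. IV had the lowest mean count, at 4.54 per bin, and these ratios were not tested. The fullest bin of the other chromosomes held 21 peaks. Of the whole bins, 14 had no replicate 1 peak, 17 had no replicate 2 peak and 10 had neither.

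The fullest bin lay from 4.25 to 4.5 Mb and was also the fullest in each replicate, with 13 combined, 8 replicate 1 and 10 replicate 2 peaks. Of its 13 combined sites, 10 fell into a pair of compact runs. The other 3 began at 4294594, 4390513 and 4445758 and had no neighbour within 10 kb, the first of them 95.6 kb from the next. The first run went from 4400896 to 4407372, held 5 peaks in 6477 bp and reached −log10 q of 23.7 at the peak from 4405041 to 4405569, which had 9.47 in replicate 1 and 12.2 in replicate 2. The second run went from 4469820 to 4477535 and held 5 peaks in 7716 bp. Its ends were its strongest sites, at 32.8 from 4469820 to 4470610 and 30.6 from 4477003 to 4477535, and both were in both replicates. Of the 13 peaks in the bin, 8 were in both replicates and 3 in neither.

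The second fullest bin, from 7.75 to 8 Mb, had another makeup. It held 12 combined peaks, of which 11 overlapped no replicate peak, and each replicate had a single peak there. The peak found in both replicates had a combined −log10 q of 25.2. Between 7.0 and 7.25 Mb lay 10 combined peaks, 3 in both replicates and 5 in neither. The bin from 5.5 to 5.75 Mb held 9 peaks, and with 12594 bp inside peaks it had the most covered sequence of these 7 bins.

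**Figure D2:**
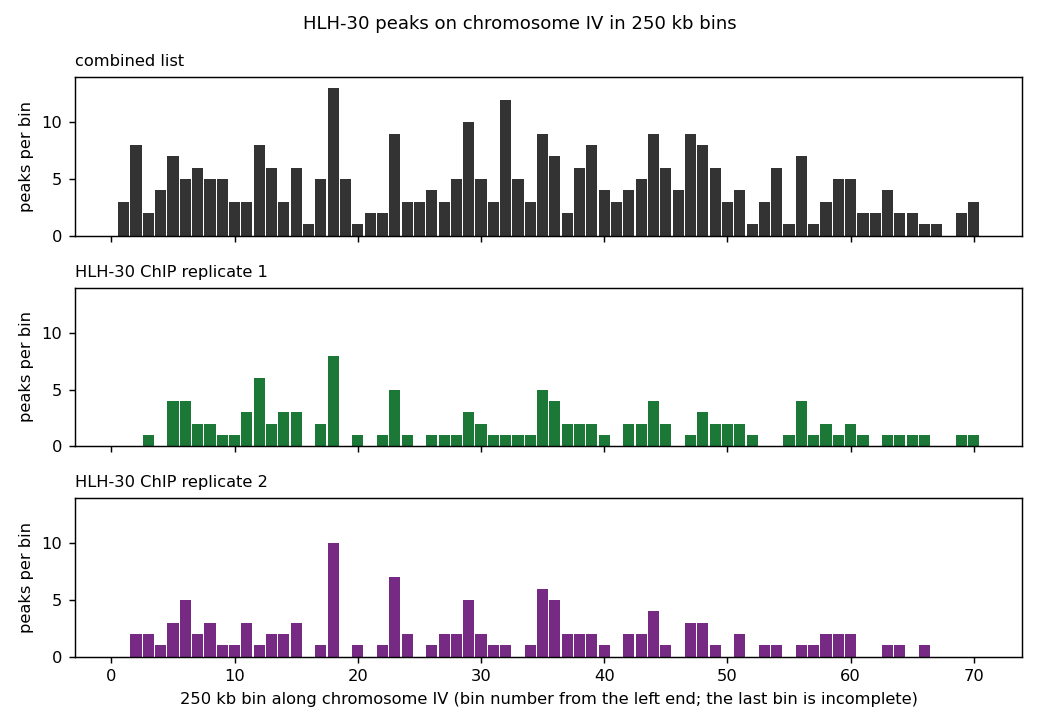
Number of HLH-30 peaks with their centre in each 250 kb bin of chromosome IV, numbered from the left end, in the combined list (top) and in ChIP replicates 1 and 2. The bin with 13 combined peaks is also the tallest in both replicates, and the right end is thinly filled in all 3 panels.

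Long stretches without a site were frequent. Of the 315 distances between neighbouring combined peaks on IV, 56 (17.8%) were 100 kb or longer, against 200 of 2470 (8.10%) on the other chromosomes. Distances between peaks depend on their density, and no test separated the 2. The longest gaps of II and V were longer than any on IV, at 832978 and 693073 bp. The longest on IV ran from 16656702 to 17245108 near the right end, 588.4 kb with no combined or replicate peak. Its bounding peaks were weak, at −log10 q of 5.29 and 6.05, and were in neither replicate. The second, of 378.4 kb, began at 14034999, directly after the fourth strongest site of the chromosome, and ended at 14413353. The third covered 358.6 kb from 15039955, the fourth 338.7 kb from 4750214 and the fifth 318.0 kb from 5778819. None of these 5 stretches held a peak of either replicate. The first peak of IV began 102.8 kb from the left end, where only X began later, at 324.0 kb.

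The replicate lists had longer gaps, with combined sites inside them. Replicate 2 had no peak from 14794564 to 15646370, 851.8 kb in which 7 combined peaks lay. It also had none from 7816156 to 8430943, a stretch that held 15 combined peaks. Replicate 1 had none from 12771822 to 13521765, where 9 combined peaks lay. Both replicates lacked a peak across about the same stretch right of 4.75 Mb, 613.9 kb long in both, where 3 combined peaks lay.

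Neighbouring sites on IV lay a median of 27.3 kb apart, with quartiles of 6.65 and 71.0 kb, against 14.4 kb (2.90 and 42.2 kb) on the other chromosomes. The replicates had medians of 94.8 and 88.5 kb on IV. Joining combined peaks up to 10 kb apart gave 221 groups, of which 68 had more than 1 member. They comprised 48 pairs, 15 triplets, 3 groups of 4 and 2 groups of 5, which were the runs of the fullest bin. A further 153 peaks (48.4%) stood alone, against 34.4% elsewhere. Of the grouped peaks 47 of 163 (28.8%) were in both replicates, against 40 of the 153 that stood alone (26.1%). Their median −log10 q was 8.39, against 7.95, and their median width 607 bp, against 445 bp.

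In the combined list the median peak width was 496 bp (quartiles 384.8 and 795.3) on IV and 520 bp (391 and 807.5) on the other chromosomes. In the replicates the IV medians were the larger, at 586 bp against 523.5 bp in replicate 1 and 590 bp against 534 bp in replicate 2. In the combined list, peaks of 1000 bp or more numbered 50 on IV (15.8%), against 409 (16.5%) elsewhere. The share was 18.8% on IV and 16.5% elsewhere in replicate 1, and 23.9% on IV and 17.1% elsewhere in replicate 2. The differences in width were not tested. The 50 broad combined peaks on IV made up 41.1% of the covered sequence on IV, where such peaks made up 41.3% elsewhere. Of them 31 (62%) were in both replicates, against 326 of 409 (79.7%) on the other chromosomes. Of the 91 peaks under 400 bp on IV, 10.99% were in both replicates and 72.5% in neither, against 19.1% in both and 60.5% in neither for 669 peaks elsewhere. These shares were not tested by width. Across the 316 peaks, width and −log10 q had a Spearman's rho of 0.50, given as a description of 1 list.

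Strength was unequal, with few strong and many weak sites. The strongest peak of IV ran from 2601806 to 2604446, 2641 bp wide. Its −log10 q was 159.3 in the combined list, 93.5 in replicate 1 and 81.7 in replicate 2, and it ranked 5 in each replicate among all chromosomes. A narrower peak of 898 bp lay 1639 bp to its left, from 2599269 to 2600166, with 56.0 in the combined list, 28.9 in replicate 1 and 25.6 in replicate 2. Both lay in segment 2 of the chromosome, which held 6 of the 20 strongest sites.

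The other members in segment 2 ran from 3384328 to 3386073 (76.6 combined, 40.2 and 32.9 in replicates 1 and 2), from 2708133 to 2709154 (60.04, 37.2 and 27.9), from 2219093 to 2220679 (57.6, 29.7 and 22.5) and from 2774296 to 2775021 (44.2, 19.5 and 19.1). In all 6 the replicate 1 value was higher than the replicate 2 value. The peak from 2774296 belonged to a group of 4 peaks in 4727 bp. All 4 of that group were in replicate 1, and 1 was in replicate 2.

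The second site by strength was the broadest combined peak of IV, 4893 bp from 5603187 to 5608079. Its combined −log10 q was 116.6, while its strongest partners had 33.3 in replicate 1 and 29.2 in replicate 2. In each replicate the interval was broken into 2 peaks, so the partner values cover only pieces of it. The peak from 5589968 to 5591795 (63.3 combined, 23.4 and 19.7 in the replicates) belonged to the same group, which spanned 25.9 kb. In replicate 2 this peak was also broken into 2 peaks, and the value of 19.7 is that of a 781 bp piece.

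The third site, 4350 bp from 10933039 to 10937388, had 114.0 in the combined list and near-equal replicate values, 57.3 and 56.2. It stood alone by the 10 kb rule and ranked 17 in both replicates. The fifth, from 11082235 to 11083495, had a combined value of 84.2 and the identical q-value in both replicates, a −log10 q of 35.2. Such equality between the replicates was rare. Among peaks with 1 partner in each replicate it was found in 1 of 82 on IV and 6 of 1081 elsewhere. Within a list equal q-values were common. Of the 316 combined peaks on IV, 96 (30.4%) had a q-value that recurred in the combined list, against 33.7% elsewhere.

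The fourth site, from 14032390 to 14034999, had 91.7 in the combined list, 40.5 in replicate 1 and 37.1 in replicate 2. It was the only one of the 20 strongest in segments 8 to 10 of the chromosome. Of the others, 12 lay in segments 4 to 7 and 7 in segments 1 to 3. The central ones included the peaks from 8527374 to 8531056 (66.7 combined, 14.4 and 24.5 in the replicates), from 8431190 to 8433393 (66.4, 30.2 and 18.7), from 6336014 to 6337434 (63.6, 28.3 and 29.7) and from 9196263 to 9199711 (60.1, 10.8 and 19.3). The first and the last of these were broken into 2 peaks in each replicate.

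The remaining strong sites held 40.9 to 54.5 in the combined list. The peak from 654681 to 655560 was the strongest of segment 1, with 54.5 combined and 20.4 and 23.0 in replicates 1 and 2. Near the middle, the peak from 8793902 to 8795705 had 53.2 combined and near-equal replicate values of 19.6 and 19.0. In segment 7, which held 5 of the 20, the peaks from 11592871 to 11594788 (45.5, 13.6 and 11.7), from 11955348 to 11957791 (43.7, 11.3 and 17.2) and from 10696872 to 10697835 (40.9, 14.7 and 17.7) did not favour a single replicate. The first of these was higher in replicate 1 and the others in replicate 2.

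All 20 strongest sites were in both replicates. Presence in both was general among strong peaks. With combined −log10 q of 20 or more, 48 of 49 peaks on IV and 460 of 460 elsewhere were in both. Combined −log10 q of the 20 sites spanned 40.9 to 159.3. These sites were broad, at a median of 1816 bp, and 16 of them reached 1000 bp. The replicate 1 value was higher in 13 of the 20 sites, the replicate 2 value in 6, and they were equal in 1. A lean to replicate 1 was also seen elsewhere. Of 395 peaks there with 1 partner in each replicate and combined −log10 q of at least 20, replicate 1 was higher in 254. The strongest site of each segment was in both replicates. At the right end, the strongest site of segment 10 ran from 16491146 to 16492802, with 23.4 combined and 7.64 and 6.90 in the replicates. The weakest of these leading sites, with 20.7 in the combined list and 8.73 and 6.92 in replicates 1 and 2, ran from 13783520 to 13783919 in segment 8. Only 1 peak in that segment reached 20, where segment 7 had 10.

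Below these sites the replicates began to differ. The strongest peak of IV that was not in both replicates ranked 23 on the chromosome. It ran 4121 bp from 14609636 to 14613756, had 33.8 in the combined list and 13.8 in replicate 2, and overlapped no replicate 1 peak. The next were from 11635587 to 11636647, with 18.4 combined and 8.71 in replicate 2, and from 8893653 to 8894120, with 16.5 and 4.87. The strongest found in replicate 1 alone ran from 2805447 to 2805997, with 15.6 combined and 9.10 in replicate 1. A broad peak of 4317 bp from 16167344 to 16171660 was weak for its width, with 12.8 combined and 6.44 in replicate 1, and had no replicate 2 partner.

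**Figure D3:**
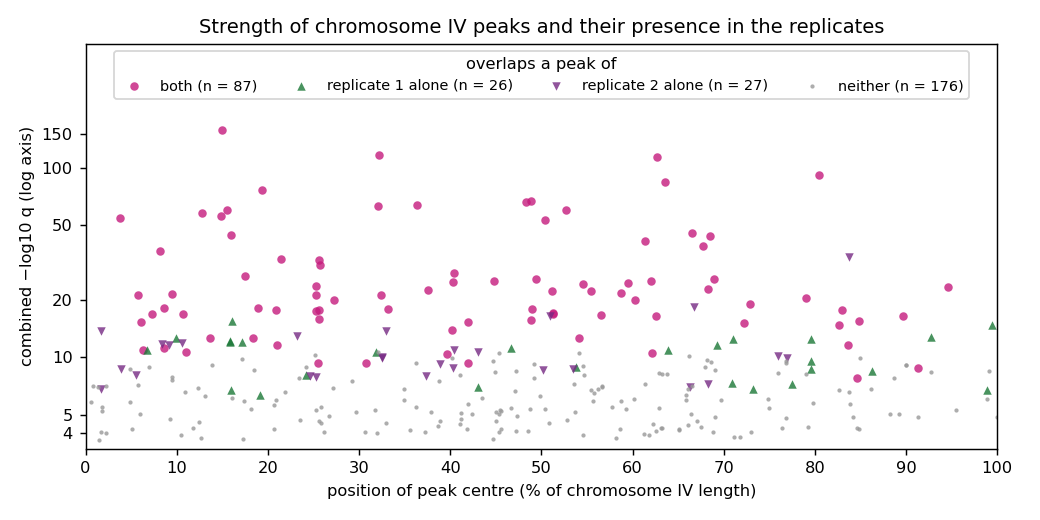
Combined −log10 q (log axis) of the 316 chromosome IV peaks against the position of their centre (% of the chromosome length), with symbols showing whether a peak of both replicates, 1 replicate or neither overlaps. Peaks in both replicates fill the upper part of the plot, and the 176 peaks in neither lie below 10.7.

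The replicates were then used to ask which combined sites of IV each of them had found. Of the 316 peaks, 87 (27.5%, 95% Wilson interval 22.9 to 32.7) overlapped a peak of both replicates, where 44.5% of all combined peaks did. A further 26 were in replicate 1 alone, 27 in replicate 2 alone and 176 (55.7%, 50.2 to 61.1) in neither, where 38.1% of all combined peaks were in neither. Against the other chromosomes, where 886 of 2475 were in neither (35.8%, 33.9 to 37.7), the share on IV was 19.9 percentage points higher (Fisher's exact test, two-sided, adjusted p = 7.71e-11 over 4 tests). It was also higher than on each other chromosome taken singly, the nearest being I with 176 of 429 (41.0%, Fisher's exact test, adjusted p = 8.23e-05 over 5 tests). Each replicate by itself found 35.8% and 36.1% of the combined peaks on IV, against 54.9% and 55.9% elsewhere.

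The combined peaks of IV had a median −log10 q of 8.16 (quartiles 5.32 and 13.2), against 8.31 (5.25 and 15.8) elsewhere. Set side by side at like combined −log10 q, the gap was widest among peaks of middle strength. Replicate values were a lower part of the combined value on IV, as given below, so these bands do not match replicate strength. Of the peaks with combined −log10 q from 7.5 to 10, 38 of 59 on IV (64.4%, 51.7 to 75.4) were in neither replicate, against 48 of 303 elsewhere (15.8%, 12.2 to 20.4; Fisher's exact test, adjusted p = 9.10e-13 over 6 bands). From 5 to 7.5 the shares were 87.7% on IV and 57.2% elsewhere (Fisher's exact test, adjusted p = 7.27e-08). From 10 to 15 they were 5 of 40 on IV and 5 of 378 elsewhere (Fisher's exact test, adjusted p = 0.00222). In that last band 12 of 40 peaks on IV (30%) were in both replicates, against 320 of 378 elsewhere (84.7%).

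From 15 upward no combined peak was in neither replicate, on IV or elsewhere. On IV this was 0 of 25 from 15 to 20, which allows a share of up to 12%, and 0 of 49 from 20 upward, which allows up to 6.12% (3 counts of the total, counting error only). Elsewhere it was 0 of 202 and 0 of 460. The weakest peak of IV found in both replicates had 7.80, against 5.32 elsewhere. The 5 strongest peaks of IV in neither replicate had 10.2 to 10.6, and the first of them, from 5592732 to 5594430, lay 936 bp from the edge of one of the 20 strongest sites. The peak from 9440851 to 9442716, at 1866 bp, was the widest in neither.

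**Figure D4:**
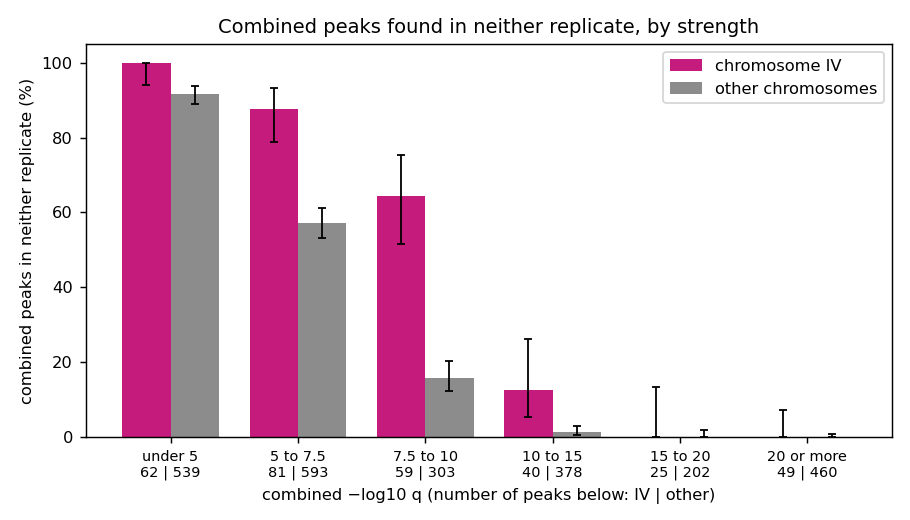
Share of combined peaks found in neither replicate (%), by band of combined −log10 q, on chromosome IV and on the other chromosomes. Error bars are 95% Wilson intervals and the numbers of peaks stand under each band. In the band from 7.5 to 10 the share was 64.4% on IV and 15.8% elsewhere.

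Replicate peaks on IV had lower values for the same combined value, and the shares by band above are not independent of this. Of the combined peaks, 82 on IV had exactly 1 partner in each replicate that overlapped no other combined peak. In these, replicate 1 reached a median of 0.420 times the combined value (quartiles 0.360 and 0.502), against 0.538 (0.468 and 0.613) for 1081 peaks elsewhere. Replicate 2 reached 0.420 times (0.349 and 0.475), against 0.507 (0.442 and 0.584). The sum of both replicate values exceeded the combined value in 9 of the 82 peaks on IV (10.98%), against 670 of 1081 elsewhere (62.0%). Chromosome I lay between, at 37.95%. The difference in these values between IV and the rest was not tested.

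Along IV the mean of both ratios had a median of 0.445 in segments 1 to 3, 0.407 in segments 4 to 7 and 0.386 in segments 8 to 10. These medians rest on 33, 37 and 12 peaks, whose median combined −log10 q was 20.1, 22.5 and 16.1. The blocks were not matched for strength, and the difference between them was not tested. The lowest mean ratio was 0.223, at the peak from 9512792 to 9514467, with 24.4 combined and 5.13 and 5.74 in the replicates. The peak from 14763095 to 14764975 went the other way. Its replicate 1 value of 10.1 was above its combined value of 7.80, and its replicate 2 value was 4.50. Between the replicates the 82 peaks had a rank correlation (Spearman's rho) of 0.76, against 0.82 for the 1081 peaks elsewhere. Each other chromosome had a higher rho than IV, from 0.78 on I to 0.84 on X. The linear correlation (Pearson's r) was 0.97 on IV and 0.96 elsewhere. These are correlations across peaks of the same 2 libraries, and only peaks called in both enter them. Replicate 1 had the higher value in 45 of the 82, replicate 2 in 36, and they were equal in 1. Elsewhere replicate 1 was higher in 639 of 1081, replicate 2 in 436, and they were equal in 6.

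**Figure D5:**
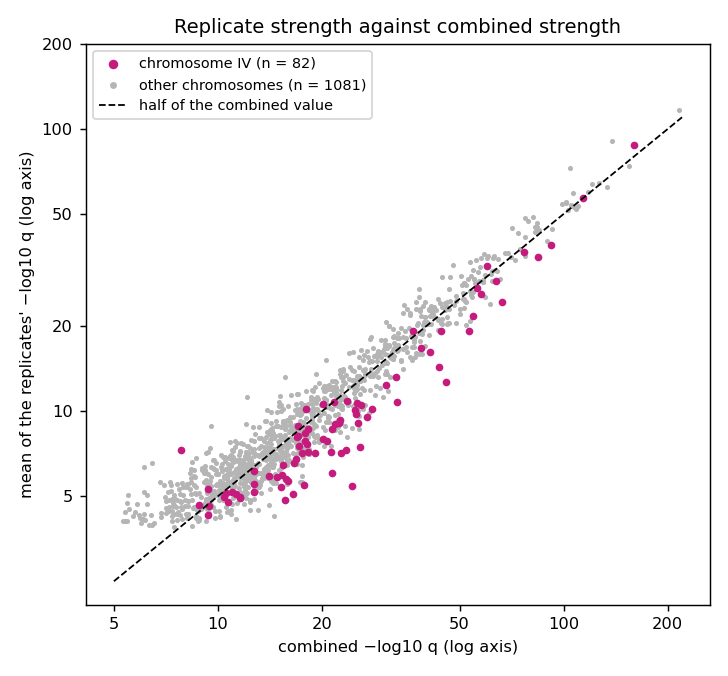
Mean of the replicates' −log10 q against combined −log10 q (log axes) for combined peaks with a single partner in each replicate, 82 on chromosome IV and 1081 elsewhere. The dashed line marks a mean of 0.5 times the combined value, and most chromosome IV points lie below it.

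The 2 replicates placed most of their own chromosome IV peaks at the same sites. Of 117 replicate 1 peaks, 90 (76.9%, 68.5 to 83.6) overlapped a replicate 2 peak, and of 117 replicate 2 peaks, 91 (77.8%, 69.4 to 84.4) overlapped a replicate 1 peak. Elsewhere the shares were 84.5% and 83.2%. The first difference passed the test and the second did not (Fisher's exact test, adjusted p = 0.0479 and 0.160 over 4 tests). The first did not pass with peak centres within 200 bp or between the stronger 50% of each list. Among the combined peaks found in at least 1 replicate, 87 of 140 on IV were in both (62.1%), where 72.6% were on the other chromosomes (adjusted p = 0.0213, Fisher's exact test). Disagreement lay mainly among weak peaks. In the stronger 59 peaks of each replicate, 55 of replicate 1 and 56 of replicate 2 were shared, against 35 of the weaker 58 in each.

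All 117 replicate 2 peaks on IV and 116 of the 117 of replicate 1 overlapped a combined peak. The exception of replicate 1, from 4023744 to 4036341, was 12598 bp wide, where the next widest replicate 1 peak on IV had 2829 bp. With a −log10 q of 16.1 it was the strongest chromosome IV peak of replicate 1 with no replicate 2 partner and ranked 19 on the chromosome in that list. The nearest combined peak began 13.3 kb to its right, at 4049595, with 12.9 combined and in replicate 2 alone. To its left the nearest combined peak ended at 3814951. Whether this interval lies at the hlh-30 gene, which the transgene carries, was not tested, since no annotation of build WS180 was used.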

How the data were processed

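Per the file headers, the authors deposited 3 peak lists in GFF version 3 on build WormBase WS180, 1 for each HLH-30 ChIP replicate and 1 combined, and each line names PeakSeq as the caller. The value deposited per peak is a q-value, a p-value adjusted by that caller. The largest was 0.000205 in the combined list, 0.000138 in replicate 1 and 0.000136 in replicate 2. For aligner, filters, control, caller version and how the combined list was made, the entry is: not given in the sources used here. Input libraries, for which no list was used, were not analysed here. Without read counts the depth is unknown.

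Computed here were −log10 q, overlaps of at least 1 bp, 10 equal segments by peak centre, 250 kb bins and gaps. Fisher's exact test compared IV with other chromosomes and an exact binomial test compared counts with length, with Benjamini-Hochberg adjustment. The functions were tested on simulated lists. Shares carry 95% Wilson intervals, for counting error only. Members and settings were chosen with earlier results of these data known. The strength and width bands, the 3 blocks of segments, the comparison with single chromosomes, the need for 1 partner each way in the ratios and the test among peaks in at least 1 replicate were added after seeing the data. Peaks named are the 20 strongest and 5 widest of IV, the bounds of the 5 longest gaps, those in the fullest bin (by range), the strongest of each segment (by range), the 5 strongest in neither replicate and any replicate peak outside the combined list. Others were chosen after their values were seen. Python 3.11.15, numpy 2.4.6, pandas 2.3.3, scipy 1.17.1 and matplotlib 3.10.9 were used.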

Additional observations from a re-analysis of the deposited data

How the results depend on the processing

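Alternatives were run for 4 results with a test. Of these alternatives, 18 of 20 kept direction and side of the threshold, 2 no longer passed and none reversed. Some of the 18 repeat tests given above and add no further check. These are the density in each replicate list, the bands from 5 to 7.5 and from 7.5 to 10, and chromosome I alone. For the overlap of replicate 2 peaks with replicate 1, keeping the side means that the test again did not pass. The tests by band, by single chromosome and among peaks in at least 1 replicate had no alternatives of their own. The descriptions have no test, and their values are given without a verdict. The lower density of IV and the higher share of its combined peaks in neither replicate passed their tests in every alternative run, including peaks up to 10 kb apart counted once. With such peaks counted once the density on IV was 0.746 of that elsewhere, against 0.605 with all combined peaks. The other alternatives for density gave 0.357 to 0.592. The share of replicate 1 peaks with a replicate 2 partner, IV minus other chromosomes, was -7.62 percentage points, against -4.90 between the stronger 50% of each list and -7.94 with centres within 200 bp, and these alternatives did not pass (Fisher's exact test, p = 0.357 and 0.0600); the cause was not tested. Keeping the stronger 50% leaves fewer peaks, and gave a median width of 723 bp, a median distance of 61.7 kb, a longest gap of 785.0 kb and a replicate to combined ratio of 0.414, which was 0.405 for −log10 q of at least 20. With 1 replicate left out, the values are those of the other replicate's list, which gave 43.6% to 50.4% of peaks in segments 4 to 7, median widths of 586 to 590 bp, median distances of 88.5 to 94.8 kb, 8 to 10 peaks in the fullest bin (13 in the combined list, 18 in bins of 500 kb and 15 in bins of the same size with shifted edges), longest gaps of 757.0 to 851.8 kb and ratios of 0.4199 to 0.4202. Alternatives within bands of strength and against chromosome I alone were added after seeing the data. No paired analysis was possible because no list of the inputs, whose replicate numbers match those of the ChIP libraries, was used here. Without depth, a site missing from a replicate cannot be called unbound there.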
